A study of Mus musculus with 20 samples.

Results

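The granule protein genes of neutrophils were followed here through libraries of sorted macrophages. The 10 genes were taken by symbol from the deposited tables, as a fixed list of names, and are 10 of 14191 different gene symbols over the 3 tables. They comprise 4 genes of primary granules (Mpo, Elane, Prtn3 and Ctsg), 5 genes of secondary and later granules (Camp, Ngp, Ltf, Lcn2 and Mmp8), and Chil3, a chitinase-like protein that immature neutrophils and activated macrophages both make. All 10 have a row in the wild-type table (13954 rows) and in the spleen table (13169 rows). The VAT table (13129 rows) holds 4 of them, Prtn3, Lcn2, Mmp8 and Chil3, and the other 6 were not analysed there.

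Neutrophils fill their granules in a fixed order while they mature. Promyelocytes transcribe the peroxidase and serine proteases of the primary granules, myelocytes and metamyelocytes switch to the secondary granule proteins, and mature neutrophils keep the stored proteins after most of this transcription has stopped. Primary granule mRNA is therefore used as a mark of the youngest neutrophil precursors, secondary granule mRNA of later precursors, and S100a8, S100a9, Csf3r and Cxcr2 mRNA of maturing and mature cells. In mice the spleen is a site of granulocyte production beside the bone marrow, and neutrophils share CD11b with macrophages while F4/80 is mainly a macrophage protein.

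RNA was sequenced from F4/80+CD11b+ cells, which fluorescence-activated sorting took from visceral adipose tissue (VAT) or spleen of male mice. The 20 libraries form 6 groups. Wild-type mice 3 months of age gave 3 VAT and 2 spleen libraries, wild-type mice 24 months of age gave 4 VAT and 4 spleen libraries, and Nlrp3-/- mice 24 months of age gave 4 VAT and 3 spleen libraries. Nlrp3 encodes the sensor of an inflammasome, and the labels name no cell type, allele or promoter that would limit its loss. A young Nlrp3-/- group was not analysed here. The labels name neither the animal behind a library nor pooling, so p-values measure only the spread between these libraries, which may be technical. Values are normalised read counts, scaled within each table. A value of 1 is the lowest in the tables and stands for 0 reads, or at most 1, and 3 reads correspond to 2.33 to 3.85 normalised counts.

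Some facts of the libraries bear on all that follows. Recovered depth was 24.1 to 37.5 M reads per library. Adgre1, which encodes F4/80, stood at 17903 to 45465 normalised counts in wild-type VAT and at 5498 to 9360 in wild-type spleen, and all 9 macrophage markers present were higher in VAT at 24 months. The 10 mature neutrophil markers present summed to 2892 to 10442 in wild-type VAT and to 125730 to 499629 in wild-type spleen, and 5 B cell markers summed to 569 to 8221 and to 69608 to 125666. Ly6g, a defining neutrophil marker, was not analysed here. In the Nlrp3-/- libraries Nlrp3 stood at 1, 3.61 and 1 in spleen and at 6.15 to 10.5 in VAT replicates 1 to 3 and 200.4 in VAT replicate 4, against 341 to 663 and 2708 to 4254 in 24-month wild types of the same tables. VAT replicate 4 labelled Nlrp3-/- therefore stood apart from its group.

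The DNA before the RefSeq transcription start sites of the 2 granule classes was also set side by side. All 10 symbols matched the RefSeq promoter table (GRCm38.p6), and the 250 bases before each start were searched on both strands for 3 motifs chosen after these sequences had been seen. AGGAAGT, which holds the GGAA core of the ETS family to which PU.1 belongs, lay in the windows of 4 of 4 primary granule genes and of 1 of 5 secondary granule genes (Mmp8), and also of Chil3. Over all 32851 windows of this length, 7.69% held it. TTGCNNAA, a palindrome of the kind C/EBP factors bind, lay in 0 of 4 primary and in 4 of 5 secondary windows (Ngp, Ltf, Lcn2 and Mmp8), against 9.56% of all windows. AACGG, a MYB core, lay before Elane and Prtn3 among the primary genes and before 0 of 5 secondary genes, against 14.5% of all windows. A match is a run of letters and was not tested as a binding site. Because the motifs were chosen on these sequences, the split between the classes is a description and no test. For 7 genes the part of the window that holds no annotated GENCODE exon of the gene is printed 5′ to 3′ on the gene's strand. These are the genes of the 2 classes whose printed part holds a match, so the display was chosen to show matches. Camp, which holds neither marked motif, Lcn2, whose match lies outside this part, and Chil3, in neither class, are not printed. Capitals mark AGGAAGT or TTGCNNAA in either orientation.
Mpo (chr11:87793534-87793580, + strand): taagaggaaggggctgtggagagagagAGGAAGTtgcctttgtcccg
Elane (chr10:79886062-79886246, + strand): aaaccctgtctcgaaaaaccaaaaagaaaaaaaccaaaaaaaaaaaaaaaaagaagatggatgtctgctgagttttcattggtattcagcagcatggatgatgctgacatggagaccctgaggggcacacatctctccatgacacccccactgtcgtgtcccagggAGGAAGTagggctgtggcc
Prtn3 (chr10:79879417-79879613, + strand): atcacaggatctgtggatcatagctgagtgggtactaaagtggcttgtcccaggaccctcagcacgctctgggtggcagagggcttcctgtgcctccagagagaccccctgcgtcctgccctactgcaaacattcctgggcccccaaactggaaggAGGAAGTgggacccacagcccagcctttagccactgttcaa
Ctsg (chr14:56102575-56102824, - strand): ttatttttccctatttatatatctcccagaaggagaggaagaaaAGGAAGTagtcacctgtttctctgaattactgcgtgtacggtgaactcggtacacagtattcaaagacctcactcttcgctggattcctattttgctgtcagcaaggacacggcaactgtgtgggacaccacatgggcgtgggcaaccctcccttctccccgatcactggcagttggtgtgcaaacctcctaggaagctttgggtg
Ngp (chr9:110419558-110419746, + strand): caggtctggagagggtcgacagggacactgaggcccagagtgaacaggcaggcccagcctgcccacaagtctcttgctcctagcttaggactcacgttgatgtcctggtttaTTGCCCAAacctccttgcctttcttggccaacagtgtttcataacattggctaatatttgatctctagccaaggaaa
Ltf (chr9:111019042-111019270, + strand): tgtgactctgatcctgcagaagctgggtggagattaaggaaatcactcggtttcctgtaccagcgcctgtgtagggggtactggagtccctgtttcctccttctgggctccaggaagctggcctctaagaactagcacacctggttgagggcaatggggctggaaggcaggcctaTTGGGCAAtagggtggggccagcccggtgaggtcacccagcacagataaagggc
Mmp8 (chr9:7558179-7558428, + strand): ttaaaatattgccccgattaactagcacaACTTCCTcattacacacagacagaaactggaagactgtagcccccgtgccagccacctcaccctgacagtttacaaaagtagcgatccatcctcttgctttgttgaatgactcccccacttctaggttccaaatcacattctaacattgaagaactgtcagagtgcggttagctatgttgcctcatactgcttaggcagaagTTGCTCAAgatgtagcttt

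In the GENCODE M21 annotation of GRCm38 the members lie on 6 chromosomes. Prtn3 (chr10:79874476-79883174) and Elane (chr10:79886247-79888215) are neighbours on the + strand, and the RefSeq start used above for Prtn3 lies inside its longer GENCODE span. Mpo is at chr11:87793581-87804413 and Ctsg at chr14:56099881-56102574. Camp, Ngp, Ltf and Mmp8 are on chromosome 9, Lcn2 on chromosome 2 and Chil3 on chromosome 3. Prtn3 overlaps Plppr3 on the opposite strand, and Mpo overlaps the antisense gene Gm11505. The libraries were strand-specific, but the strand used in counting is not given in the sources used here, so reads of such partners cannot be told apart. Chil3 has a near-identical neighbour in sequence, Chil4, which stood at 1 to 56.5 in the spleen table, so some Chil3 reads may have been split.

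Sorted spleen cells of wild types held all 10 granule mRNAs, at 128 to 201223 normalised counts. In wild-type VAT 9 of the 10 stood at 105 or less in every library, and Chil3 stood at 338 to 1516. Together the 10 genes took 0.311 to 1.499% of all normalised counts in wild-type spleen and 0.00106 to 0.00489% in wild-type VAT. At 24 months all 10 were lower in VAT in limma on log2(value + 1), where 22.5% of the 13702 genes tested were called lower, and at 3 months all 10 were lower, against 18.7%. Among members with any recovered VAT reads, log2 differences ran from -4.35 (Prtn3) to -13.69 (Ngp) at 24 months. At 3 months they ran from -5.53 (Chil3) to -13.44 (Camp). The largest of these also rest on the floor. Ngp stood at 1 in 2 of 4 VAT libraries at 24 months and ran from -14.64 to -11.95 over the alternatives. Camp stood at 1 in 2 of 3 at 3 months and ran from -14.34 to -11.55. VAT stood at 1 in every library, or 0 recovered reads, for Elane and Camp at 24 months and for Ngp at 3 months. There the fitted difference depends on the pseudocount and a bound is given instead. In each comparison the VAT and spleen libraries did not overlap for any of the 10, against 19.8% and 29.4% of all genes apart in this direction. In sorted bulk RNA, fewer neutrophil-lineage cells and less granule mRNA per cell cannot be told apart. Mature neutrophil markers moved with this difference, with 10 of 10 lower in VAT at either age, and B cell markers with 5 of 5; their part in the result was not tested.

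Elane, the neutrophil elastase, stood at 1, 9.63 and 1 in 3-month VAT and at 1 in all 4 libraries of 24-month VAT. In spleen it stood at 15955 and 18561 at 3 months and at 14022, 3623, 4643 and 11449 at 24 months. Spleen thus carried at least 2703-fold more at 24 months, set against the 3-read floor of VAT. Camp, the cathelicidin antimicrobial peptide, likewise stood at 1 in every 24-month VAT library and in 2 of 3 libraries at 3 months, where the third had 11.8. In spleen Camp reached 32810 and 52130 at 3 months and 19567, 8059, 7963 and 18851 at 24 months, at least 4362-fold above the 24-month VAT floor. Ngp, a neutrophilic granule protein related to the cathelicidins, stood at 1 in all 3 libraries of 3-month VAT and at 1, 1, 13.7 and 4.75 in 24-month VAT. Its spleen values, at 3 months at least 50446-fold above the VAT floor, were 133910 and 201223 at 3 months and 83421, 32992, 33543 and 110809 at 24 months. Every spleen library lay above every VAT library. Mpo, the peroxidase that makes hypochlorous acid, stood at 1, 13.5 and 1 in 3-month VAT and at 9.10, 4.08, 37.9 and 1 in 24-month VAT. Mpo in spleen was 9379 and 12280 at 3 months and 11478, 3102, 3171 and 12421 at 24 months. Thus even the highest VAT library lay 81.9-fold below the lowest spleen library of 24 months.

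**Figure D1:**
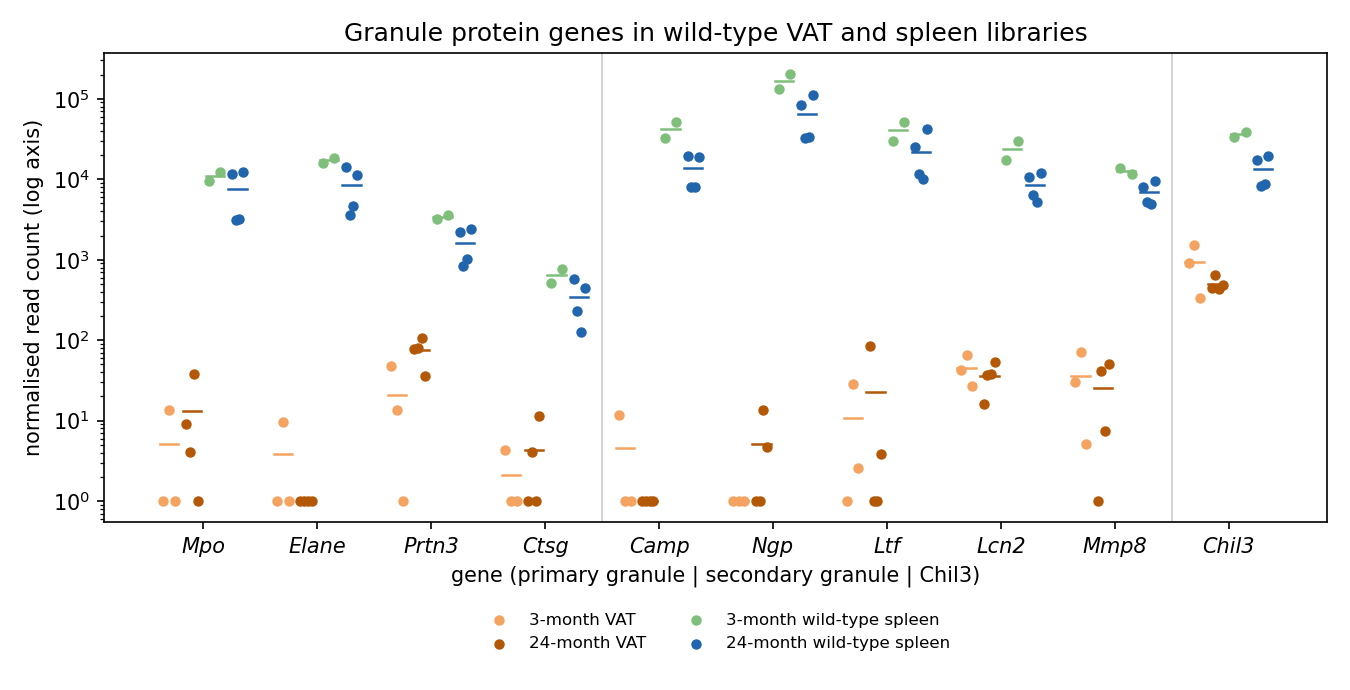
Normalised read count (log axis) of each granule gene in the wild-type libraries, in the wild-type table; points are libraries and short lines are group means, with VAT in orange and brown and spleen in green and blue. For every gene the VAT points lie below the spleen points, with Chil3 in VAT at 338 to 1516.

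The 4 members with the most reads in 24-month VAT were Chil3 (1939 over the 4 libraries), Prtn3 (285), Lcn2 (143) and Mmp8 (102), followed by Ltf (78) and Mpo (48). Chil3 stood at 923, 1516 and 338 in 3-month VAT and at 439, 643, 436 and 483 in 24-month VAT, and spleen was 38.9-fold and 26.9-fold higher at the 2 ages. Lcn2, the siderophore-binding lipocalin, stood at 43.0, 65.5 and 27.0 in 3-month VAT and at 15.9, 36.7, 37.9 and 54.1 in 24-month VAT. Mmp8, the neutrophil collagenase, ranged from 1 to 72.2 over the 7 wild-type VAT libraries. The age groups overlapped for each of these 3. Prtn3, which encodes proteinase 3, stood at 48.4, 13.5 and 1 in 3-month VAT and at 78.5, 79.6, 105 and 36.1 in 24-month VAT. Plppr3, its opposite-strand partner (listed under the older symbol Lppr3), stood at 219, 137 and 109 and at 308, 348, 435 and 177 in the same libraries. Within each age the 2 genes ranked the libraries in the same order. In spleen Plppr3 was at 46.9 to 225, while Prtn3 was at 828 to 3639. Whether the VAT reads of Prtn3 belong to this partner was not tested. Ltf, the iron-binding lactoferrin, stood at 84.2, 1, 1 and 3.80 in 24-month VAT, so 1 library set its group mean.

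Age made no called difference in VAT. Limma called 0 of 10 members, against 5.40% of all genes, with 1 of 10 (Prtn3) at an unadjusted p under 0.05, against 20.6%. Mpo, Elane, Ctsg, Camp, Ngp and Ltf have no row in the VAT table and were tested beside their high spleen values. Their VAT group means were only 1 to 22.5 normalised counts, so the absence of a call says little about age for them. edgeR called 0 and DESeq2 1 (Ngp, from 0 recovered reads at 3 months to 18 at 24 months), where they called 652 and 1168 of all genes. For Prtn3 the log2 difference was 2.65 ± 0.78 (SE; n = 3 and 4, adjusted p = 0.0614 in limma), and the age groups overlapped. Without 3-month replicate 1 it was 3.72 with an adjusted p of 0.0115 (3.08% of all genes called), and without 3-month replicate 3 it was 1.41 with 0.279. Chil3 was at -0.66 ± 0.40 (adjusted p = 0.381). Other markers moved in these libraries: 4 of 5 B cell markers rose with age in limma (median log2 difference 2.15). Of 10 mature neutrophil markers limma called 1 lower (Il1r2), and 3 were above 0, with a median of -0.84. Their part in the values of Prtn3 and Chil3 was not tested. The spread of the members about their group means, as a residual SD of log2 values, was larger in VAT (0.68 to 2.37) than in spleen (0.41 to 0.97) for 10 of 10 genes, and the limma fit shares 1 spread per gene between the tissues.

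Across members, levels per length followed an order in which the secondary genes Ngp and Camp led. In 24-month wild-type spleen, normalised counts per kilobase of exon averaged 53348 ± 31523 for Ngp, 17955 ± 8538 for Camp, 8572 ± 5176 for Elane and 8244 ± 3566 for Chil3 (SD, n = 4). Ltf (6401), Lcn2 (3245), Mmp8 (2854), Mpo (2203), Prtn3 (928) and Ctsg (337) followed on this scale. The length was the union of all annotated GENCODE exons of a gene, 2623 bases for Lcn2 and 1732 for Prtn3. A gene whose transcripts in these cells are shorter than this union would stand higher, so the order depends on the annotation. From Elane to Prtn3 each gap to the next gene was smaller than the larger SD of the pair. The genes share these libraries, so this SD does not decide whether neighbours differ. Per kilobase, Mpo (3352, 906, 926 and 3628) lay above Prtn3 (1265.5, 478, 581 and 1388) in every library, while Elane and Chil3 changed places. In 3-month spleen the order was the same except that Chil3 stood above Elane.

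The old wild-type spleen libraries were not alike. Replicates 1 and 4 had more of every one of the 10 mRNAs than replicates 2 and 3, and the lowest value of each gene in the spleen table was in replicate 2 (5 genes) or 3 (5 genes). Mpo, for example, stood at 12482 and 13545 in replicates 1 and 4 and at 3390 and 3448 in replicates 2 and 3. The mean log2 level of the primary genes was 12.01, 10.38, 10.32 and 11.91 in replicates 1 to 4, and that of the secondary genes 14.43, 13.42, 13.30 and 14.74. The 10 mature neutrophil markers had 12.40, 12.05, 11.82 and 12.05 in the same order, a narrower range. The granule genes therefore varied among libraries of 1 group by more than the mature markers did. The ratio of Elane to Cxcr2, a chemokine receptor of mature neutrophils, was 1.61, 0.495, 0.986 and 2.36.

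For age in spleen the question was whether the granule genes differed between old and young wild types. In the wild-type table all 10 averaged lower at 24 months, with log2 differences from -0.81 (Mpo) to -1.74 (Camp), and limma called 0 of 10, against 6.20% of all genes. At an unadjusted p under 0.05 there were 4 of 10 (Camp, Ngp, Lcn2 and Chil3), against 22.0%, while on recovered reads edgeR called 1 (Lcn2; 4.79% of all genes) and DESeq2 2 (Lcn2 and Chil3; 10.4% of all genes). The age groups did not overlap for 7 of 10 genes, against 15.0% of all genes apart in this direction. The 3 that overlapped were Mpo, Ctsg and Ltf. The median was -1.16 for the 4 primary genes, -1.51 for the 5 secondary genes and 0 over all genes.

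Chil3 stood at 33548 and 38546 at 3 months and at 17209, 8342, 8634 and 19630 at 24 months. Every old library lay below both young ones, and the log2 difference was -1.53 ± 0.45 (SE, adjusted p = 0.0589 in limma). Lcn2 stood at 17374 and 30066 and at 10683, 6329, 5179 and 11858, again apart, with a difference of -1.51 ± 0.47 (adjusted p = 0.0698 in limma). Both passed in the separately scaled spleen table, where the fit takes its spread from spleen libraries only: -1.49 for Lcn2 (adjusted p = 0.0302), -1.51 for Chil3 (0.0261) and -1.72 for Camp (0.0361), which made 3 of 10 called, against 4.98% of all genes in that fit. With a pseudocount of 10 the wild-type table called 4 of 10 (Camp, Ngp, Lcn2 and Chil3), against 6.81% of all genes. Without 24-month replicate 4 it called Chil3 alone (-1.74, adjusted p = 0.0476), against 4.41%.

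Mature neutrophil markers moved with age in the same libraries. Of the 10 present, 6 fell with age in limma (S100a8, S100a9, Csf3r, Cxcr2, Il1r2 and Trem1), and none of the 10 overlapped between the ages, with a median log2 difference of -1.45. S100a8, a calcium-binding protein abundant in neutrophils, went from 188598 ± 31269 (SD, n = 2) to 57591 ± 16006 (n = 4). The part of neutrophil number in the granule result was not tested. Among 17 other secondary and tertiary granule genes, 4 fell (Lyz2, Anxa1, Hp and Mmp9) and 0 rose, against 3.40% of all genes called lower. Of 10 other genes of promyelocytes and serine protease storage, 1 fell, Srgn, the proteoglycan that packs granule proteases, and 0 rose. At 24 months the secondary and tertiary list summed to 541699 to 637104 in wild-type VAT and 263323 to 392425 in spleen. The promyelocyte and protease list summed to 107796 to 122969 and 56377 to 67475. These 2 lists are thus not particular to neutrophils, and which cells their reads came from was not tested. Of 9 transcription factors of granulopoiesis, Runx1 and Cebpb fell and Irf8 rose. The 12 cell cycle genes had 0 called in limma. Csf3r, Cxcr2, Il1r2, Trem1, Hp, Mmp9, Runx1, Cebpb and Irf8 are named after their values were seen.

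Tissue by age was not called for any member either. The age difference in VAT minus that in spleen was above 0 for all 10, from 0.12 (Mmp8) to 3.89 (Prtn3), and limma called 0 of 10, against 2.74% of all genes. The age difference in spleen alone was below 0 for all 10, from -0.81 (Mpo) to -1.74 (Camp). Most members stood near the floor in VAT, where little fall is possible, so the shared sign is not read as a change in VAT. At an unadjusted p under 0.05 there were 2 (Prtn3 and Ngp), against 16.7%. edgeR called 0 and DESeq2 1 (Ngp), where they called 359 and 798 of all genes. A pseudocount of 10 called Prtn3 (2.93, adjusted p = 0.0457; 450 of all genes), and leaving out 3-month VAT replicate 1 also called Prtn3 (4.95, adjusted p = 0.0261; 206 of all genes). The differences for Elane and Camp turned to -3.90 and -3.44 in edgeR, where VAT held 0 recovered reads at 24 months. That for Mmp8 turned in 6 of 20 alternatives.

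The genotype comparison asked whether old mice without Nlrp3 carried other levels than old wild types. In spleen the 10 genes averaged higher in Nlrp3-/-, with log2 differences from 0.84 (Elane) to 1.63 (Ltf), but limma called 0 of 10, against 0.00766% of all genes, a background set by 1 called gene. At an unadjusted p under 0.05 there were 7 of 10, all but Mpo, Elane and Ctsg, against 6.19% of all genes, and edgeR and DESeq2 called 0. The groups did not overlap for Camp, Lcn2 and Chil3, against 3.80% of all genes apart in this direction. The median log2 difference was 0.97 for the 4 primary genes, 1.60 for the 5 secondary genes and 0.01 over all genes. For the 10 other genes of promyelocytes and serine protease storage the median was 0.44, with 10 of 10 above 0. For the 17 other secondary and tertiary granule genes it was 0.46, with 16 of 17 above 0. The gap between the medians of the 2 classes was thus not seen in these wider lists. Limma called 0 markers of the following lists. Macrophage markers were above 0 in 9 of 9 (median 0.30) and monocyte markers in 8 of 8 (0.33). Mast cell and basophil markers were above 0 in 6 of 6 (0.75) and cell cycle genes in 11 of 12 (0.26). B cell markers were above 0 in 0 of 5 (-0.23), eosinophil markers in 2 of 9 (-0.91) and progenitor markers in 2 of 5 (-0.17). The part of these lists in the result was not tested. This comparison and the one of age share the 24-month wild-type spleen libraries, so their values stand side by side and are not 2 independent results.

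Of the primary genes, Mpo stood at 12482, 3390, 3448 and 13545 in old wild-type spleen and at 12498, 24421 and 7332 in Nlrp3-/- spleen. Elane stood at 15248, 3959, 5049 and 12486 in wild types and at 15018, 27676 and 6639 in Nlrp3-/-. Prtn3 had 2384, 904, 1095 and 2621 against 2773, 5653 and 1849. For each of these 3 the Nlrp3-/- range began inside the wild-type range, and only replicate 2 or replicates 1 and 2 of Nlrp3-/- lay above it. Ctsg, the cathepsin G protease, was the least abundant at 631, 255, 139 and 492 against 628, 1172 and 355. Log2 differences for the 4 lay between 0.84 and 0.98.

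Of the secondary genes, Camp stood at 21279, 8806, 8659 and 20557 in wild types and at 41375, 77236 and 21704 in Nlrp3-/-. Lcn2 stood at 11617, 6916, 5632 and 12931 against 24914, 42060 and 15825. All 3 Nlrp3-/- libraries lay above all 4 wild types for both, by 1.60 ± 0.39 (SE, adjusted p = 0.573) and 1.54 ± 0.32 (adjusted p = 0.552) on the log2 scale in limma. Ngp had 90718, 36051, 36474 and 120842 against 187535, 358023 and 101939. Ltf had 27114, 12766, 10933 and 45440 against 53716, 123326 and 38167. In both, replicate 3 of Nlrp3-/- lay under the highest wild type. Mmp8 had 8600, 5717, 5407 and 10433 against 14656, 23105 and 8418, a log2 difference of 0.97, as small as those of the primary genes. Chil3, with 18714, 9116, 9388 and 21407 against 39709, 63902 and 24647, was apart again (1.54 ± 0.32, adjusted p = 0.552 in limma).

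**Figure D2:**
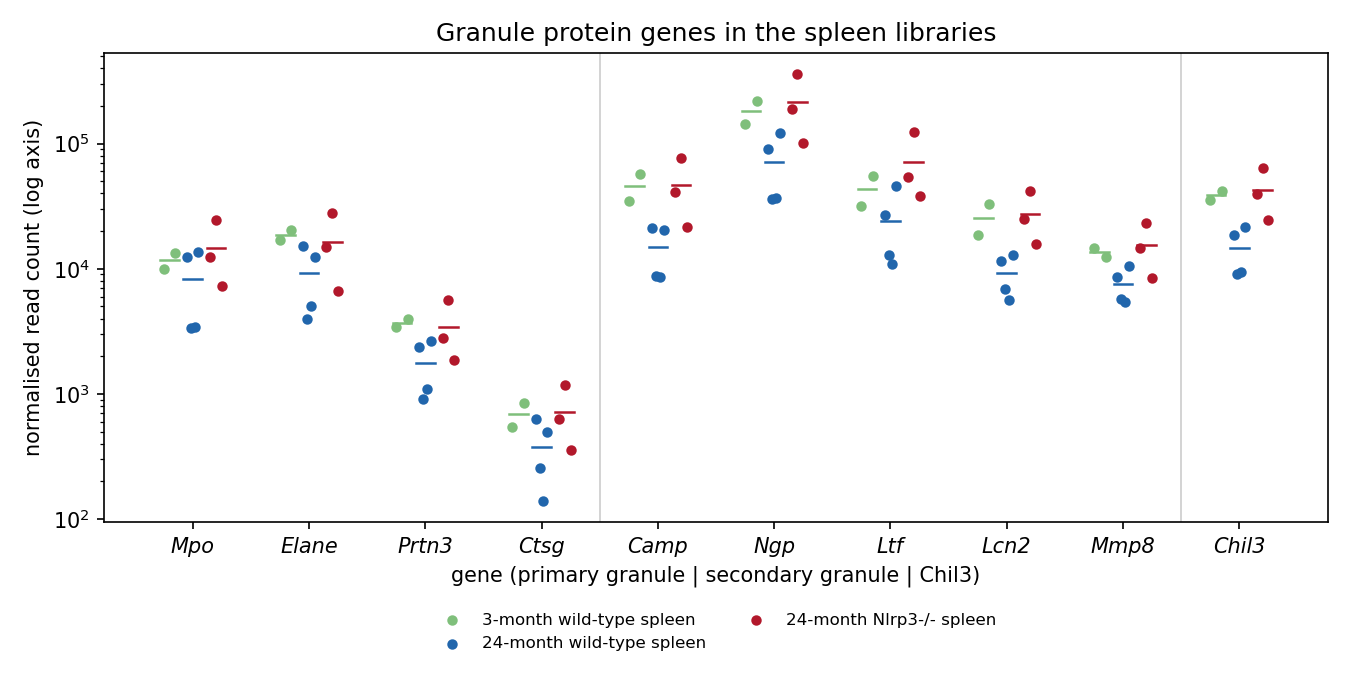
Normalised read count (log axis) of each granule gene in the spleen table; points are libraries and short lines are group means for 3-month wild type (green), 24-month wild type (blue) and 24-month Nlrp3-/- (red). For each gene the highest point is Nlrp3-/- replicate 2, and the 4 old wild types fall into a higher and a lower pair.

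Nlrp3-/- replicate 2 was the highest of the 9 spleen libraries for 10 of 10 members, and its granule genes took 2.58% of all normalised counts, of which Ngp alone took 1.24%. The other Nlrp3-/- libraries had 1.38 and 0.797%. Without replicate 2 the log2 differences stayed above 0 for all 10, at 0.52 for Mpo, 0.35 for Elane, 1.15 for Camp and 1.17 for Ngp, each with an adjusted p of 0.9997 in limma. Among mature neutrophil markers this library was the highest for 1 of 10, while 3-month replicate 1 was for 7 of 10. The mature markers had a median genotype difference of 0.36 with 9 of 10 above 0 and 0 called in limma, summing to 136715 to 243337 in old wild types and to 204154 to 486771 in Nlrp3-/-. S100a8 (1.21) and Stfa2 (1.07) were apart between the genotypes. Their part in the granule result was not tested.

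**Figure D3:**
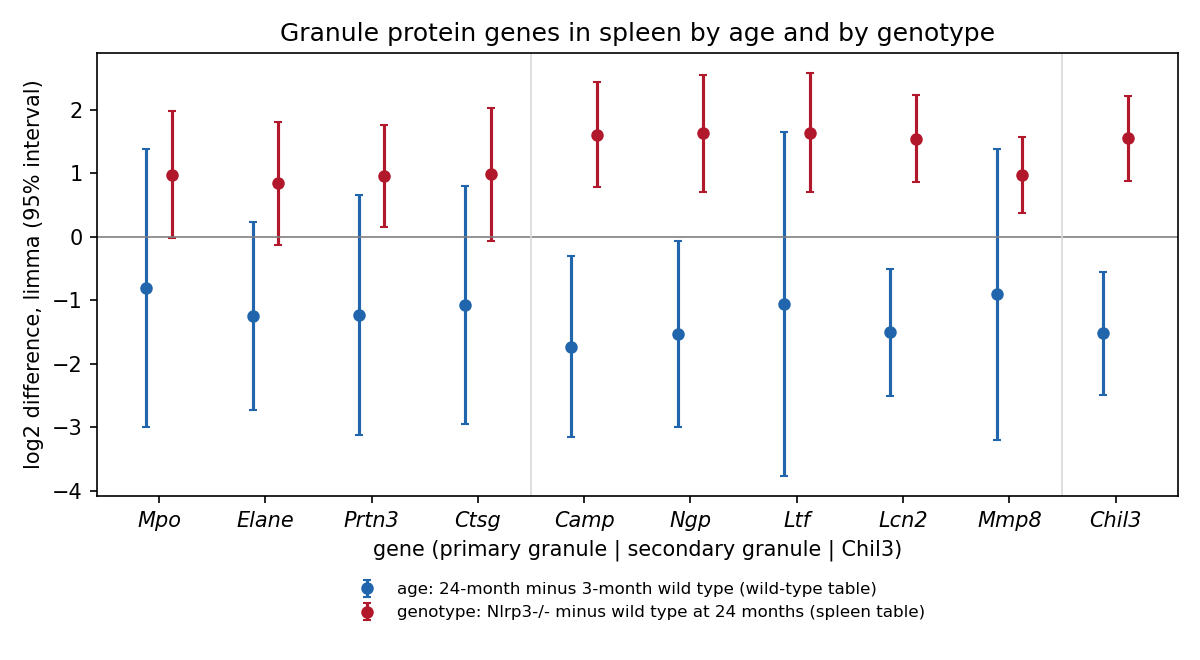
Log2 differences with 95% intervals from limma for each granule gene in spleen, by age (blue, 24-month minus 3-month wild type, wild-type table) and by genotype (red, Nlrp3-/- minus wild type at 24 months, spleen table); the comparisons share the 24-month wild-type libraries. Points for age lie below 0 and points for genotype above 0 for all 10 genes, and no gene passed the adjusted threshold.

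Setting primary against secondary genes within each library removes any factor that scales both classes alike. The mean log2 level of the 4 primary genes minus that of the 5 secondary genes was -2.42, -3.05, -2.98 and -2.83 in old wild-type spleen. In Nlrp3-/- spleen it was -3.35, -3.29 and -3.43, so each of these 3 libraries had less primary relative to secondary mRNA than any of the 4 wild types of its age. Both young libraries, at -2.99 and -3.16, lay above the Nlrp3-/- values too. Group means were -3.36 ± 0.07 (SD, n = 3) in Nlrp3-/-, -2.82 ± 0.28 (n = 4) in old and -3.08 ± 0.12 (n = 2) in young wild types. The members were chosen with results known, so these differences, -0.54 by genotype and 0.26 by age, are given without a test. Leaving out 1 library at a time kept the genotype difference between -0.61 and -0.40. The age difference was 0.12 without 24-month replicate 1 and 0.17 without 3-month replicate 2.

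By group averages, the shift was carried by Camp, Ngp, Ltf and Lcn2 and not by Mmp8. Of the 20 pairs of a primary with a secondary gene, the log2 ratio of primary to secondary averaged lower in Nlrp3-/- in 18, from -0.01 for Prtn3 over Mmp8 to -0.80 for Elane over Ltf. The other 2 pairs, Mpo and Ctsg over Mmp8, were at 0.01 and 0.01. The genotypes did not overlap in 9 of the 20 ratios, and they overlapped in every ratio over Lcn2 or Mmp8. Elane came to 8.01, 7.73 and 6.51% of the Ngp count in Nlrp3-/- spleen, against 16.8, 10.98, 13.8 and 10.3% in old wild types and 11.9 and 9.22% in young ones. The 3 Nlrp3-/- libraries thus had the lowest Elane shares of the 9, while their Elane counts lay within or above the wild-type range. By age, 14 of 20 ratios averaged higher in old wild types, led by Mpo over Camp (0.93). The pairs share genes and libraries and are not independent.

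Against the mature neutrophil markers, both classes stood higher in replicate 2 of Nlrp3-/- than elsewhere. The secondary genes exceeded the mean log2 level of the mature markers by 2.62, 3.41 and 2.58 in Nlrp3-/-, by 2.03, 1.37, 1.48 and 2.69 in old wild types and by 1.39 and 2.27 in young ones. The primary genes differed from it by -0.73, 0.12 and -0.86 in Nlrp3-/-, by -0.40, -1.68, -1.50 and -0.14 in old and by -1.60 and -0.89 in young wild types. For the primary genes the 2 genotypes overlapped, as did the 2 ages. Elane over Cxcr2 was 1.22, 3.11 and 1.05 in Nlrp3-/- and 0.550 and 1.06 in young wild types, overlapping the old wild types. The 12 cell cycle genes, which dividing precursors and other dividing cells share, averaged 10.47, 10.75 and 9.84 in Nlrp3-/- and 9.87 to 10.38 in old wild types on the log2 scale, so that replicate 2 was the highest here as well.

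**Figure D4:**
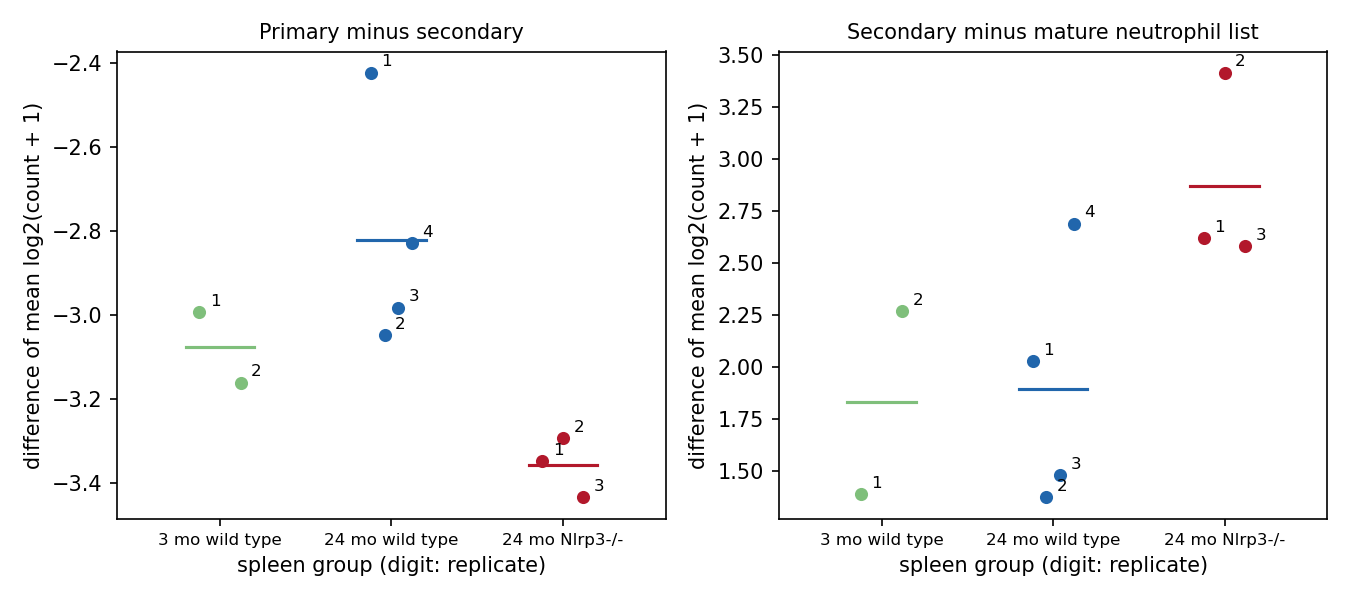
Left, mean log2 level of the 4 primary genes minus that of the 5 secondary genes in each spleen library; right, secondary genes minus 10 mature neutrophil markers. Points are libraries with their replicate number and lines are group means. The 3 Nlrp3-/- libraries lie lowest on the left, at -3.43 to -3.29, and on the right replicate 4 of old wild type (2.69) lies among them.

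Genes whose pattern was most like each class over the 9 spleen libraries were named by Pearson correlation of log2 values, as a description across libraries that share 3 groups and a scaling. With the mean of the primary genes these were Cebpe (r = 0.963), the transcription factor needed for secondary granules, then Prss57 (0.959), a serine protease of primary granules, Fcnb (0.958), a ficolin of immature myeloid cells, 9530068E07Rik (0.948) and Hmgn2 (0.946). With the mean of the secondary genes they were Orm1 (0.984), an acute-phase glycoprotein, Itgb2l (0.979), an integrin chain, Gstm1 (0.969), Lta4h (0.963), an enzyme of leukotriene B4 synthesis, and Anxa1 (0.952). Fcnb stood at 5296, 9406 and 1769 in Nlrp3-/- and at 4749, 1795, 1349 and 4084 in old wild types, which overlapped. Orm1, the closest to the secondary genes, stood at 448, 643 and 237 in Nlrp3-/- and at 198, 65.5, 59.2 and 259 in old wild types, which overlapped. Itgb2l stood at 2133, 3447 and 1293 against 955, 413, 454 and 1181, which did not overlap (log2 difference 1.64 ± 0.39, adjusted p = 0.571 in limma). These genes were picked for following the members and are no independent evidence. Over the 11 VAT libraries the closest genes were 5430405H02Rik to Prtn3 (r = 0.935) and 4930539E08Rik to the mean of Lcn2 and Mmp8 (r = 0.921).

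Loss of Nlrp3 made no called difference among the 4 members with VAT values. Limma called 0 of 4, against 0.00764% of all genes, with 1 of 4 (Lcn2) at an unadjusted p under 0.05, against 6.09%, and edgeR and DESeq2 called 0. Lcn2 stood at 73.0, 30.5, 141 and 121 in Nlrp3-/- VAT against 14.9, 34.0, 35.3 and 51.1 in wild types of the same table. Of these, 3 of 4 Nlrp3-/- libraries lay above all wild types, and the log2 difference was 1.31 ± 0.58 (SE, adjusted p = 0.791 in limma). Chil3 stood at 1137, 601, 1437 and 469 against 412, 595, 405 and 456, overlapping between groups (0.83 ± 0.41, adjusted p = 0.829). Mmp8 had 29.0, 29.4, 123 and 48.2 against 1, 38.7, 6.86 and 48.4. Prtn3 had 15.002, 75.7, 94.0 and 25.1 against 73.7, 73.7, 97.9 and 34.1, and here Plppr3 stood at 212, 348, 338 and 314. Without the Nlrp3-/- replicate 4 that kept Nlrp3 reads, the differences were 1.11 for Lcn2, 1.11 for Chil3, 1.87 for Mmp8 and -0.44 for Prtn3, with none called. S100a8 averaged higher in Nlrp3-/- VAT and was not called (1.67 ± 0.37, adjusted p = 0.452 in limma). It stood at 360, 457, 746 and 408 in Nlrp3-/- and at 80.1, 141, 324 and 133 in old wild types. Its groups did not overlap, as for only 1 of the 8 mature neutrophil markers. The mature neutrophil markers present, 8 of 12, were above 0 in 8 of 8 with a median log2 difference of 0.90, and summed to 4558 to 13518 in Nlrp3-/- VAT and to 2728 to 9519 in old wild types. The 4 B cell markers present were above 0 in 4 of 4 (median 0.97). Mast cell and basophil markers were above 0 in 5 of 6 (median 1.14). They summed to 3748 to 14861 in Nlrp3-/- VAT and to 2616 to 3415 in old wild types. Progenitor markers were above 0 in 3 of 4 (0.88) and macrophage markers in 2 of 9 (-0.18). Limma called 0 in each of these lists, and the part of these cells was not tested.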

How the data were processed

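The deposited signal values are normalised read counts per gene. The submitters' processing notes name mm10 and the tools TopHat, DESeq2, Partek and CASAVA (1.8.2); the role of each, the counting, its strand and the removal of rows are not given in the sources used here. The wild-type, VAT and spleen tables were normalised separately by the authors, so tests stayed within a table. Whole reads were recovered from the steps of the deposited values (at least 99.769% whole within 0.05 read, up to 20000 reads). Genes with a mean of at least 10 were fitted as log2(value + 1) with limma 3.58.1 (trend, 1 mean per group, two-sided, Benjamini-Hochberg over all genes tested, threshold 0.05), which left 13702, 13090 and 13053 genes. edgeR 4.0.16 and DESeq2 1.42.0 on recovered reads, another pseudocount, no filter, quantile scaling, a replicate block and left-out libraries were alternatives. The limma code was run on simulated data with large set changes in well-expressed genes. That run did not cover genes near the floor or the wider spread of the members. Members and lists were chosen with earlier results of these data known. Members are named in full, other lists by at most 4 genes of highest mean unless stated, and likeness by the 5 genes of highest correlation. Recovered reads of members in 2 tables differed in 0 of 28 (VAT) and 1 of 60 entries (spleen, by 1 read). Floors cover counting error only.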

Additional observations from a re-analysis of the deposited data

Results flagged for a closer look

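Ltf in replicate 1 of 24-month wild-type VAT, at 84.2 normalised counts, lay far from the other 3 libraries of its group, at 1, 1 and 3.80. It was the only one of 28 group checks to stand out in this way, and chance marks about 1 group in 20.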

How the results depend on the processing

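All 10 members were lower in VAT than in spleen under every alternative run, and no genotype alternative called a member. For age in VAT, 1 member was called with quantile scaling (Prtn3) and 1 with DESeq2 (Ngp), and 0 to 1 with a library left out. The count over all genes, 740, was 1168 with DESeq2 and 1225 in the VAT table, and 218 to 795 with a library left out. For age in spleen, 4 members were called with a pseudocount of 10, 1 with edgeR, 2 with DESeq2, 3 in the spleen table and 0 to 1 with a library left out. The count over all genes, 850, was 17 with only the groups compared and 1429 with DESeq2, and 180 to 943 with a library left out. For tissue by age, 1 member was called with a pseudocount of 10, 1 with DESeq2 and 0 to 1 with a library left out, while 375 genes became 798 with DESeq2 and 123 to 655 with a library left out. Genotype counts over all genes, 1 in each tissue, became 30 in VAT and 16 in spleen with DESeq2, and 1 to 3 in VAT with a library left out.

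Directions turned where VAT held few reads. With a library left out, the log2 difference by age in VAT ran from -1.34 to 0 for Camp, -1.21 to 0 for Elane, -1.16 to 1.25 for Ltf, -1.78 to 0.14 for Mmp8 and -0.020 to 0.99 for Ctsg. For tissue by age it ran from -0.87 to 1.05 for Mmp8 and from -0.10 to 2.31 for Ltf. In that comparison Elane was at -3.90 in edgeR and -3.08 in DESeq2, and Camp at -3.44 and -2.73. VAT holds 0 recovered reads of both at 24 months. The cause of the other changes was not tested.

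Samples with the same replicate number did not deviate together (correlations from -0.15 to 0.24), so the numbers were not taken to pair them. With the replicate block the counts over all genes were 0 for age in VAT, 0 for age in spleen, 3641 for tissue at 3 months and 0 for genotype in spleen, Ctsg by age in VAT was at -0.020 and Mmp8 in tissue by age at -0.27.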
